A study of Saccharomyces cerevisiae with 12 samples.

Results

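The genes described here encode protein subunits of the mitochondrial ribosome of budding yeast. They are a set list of 43 ORFs with an MRPL or MRPS name, together with MRP7, that lie outside chromosome IX, out of 6174 ORFs in the array table; 35 encode large subunit proteins and 8 encode small subunit proteins. The list rests on names, not on values; MRPS12 is not in it and is counted below among the other mitochondrial ribosome genes. The 6 comparisons came from 12 2-colour arrays, 2 dye-swapped arrays each, of strains in which the forkhead transcription factor gene HCM1 was altered. A value is a log2 ratio, numerator over denominator, so that 1 is a doubling and 0 is no difference.

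All strains derive from CML128, a MATa strain with nutritional marker mutations in URA3, HIS4, LEU2 and TRP1, and all grew in the rich glucose medium YPD at 30 °C to an A600 of 0.5. MJRC05 carries hcm1::natMX4 in CML128 and was set over CML128 itself (the deletion comparison). GRB2405 carries HCM1-3HA::natMX4, an HA-tagged HCM1 at its own promoter. MJRC07 is GRB2405 with tetO7-HCM1-3HA::kanMX4, a promoter that doxycycline represses. MJRC07 without doxycycline, the overexpressor, was set over GRB2405 (overexpressor over tagged), and over MJRC07 with doxycycline for 10 h (overexpressor over repressed). The 3 controls were GRB2405 over CML128 (tagged over wild type) and GRB2405 after 4 h or 10 h of doxycycline over untreated GRB2405. All strains of the overexpressor and doxycycline comparisons therefore carry the tag, and the denominator of overexpressor over repressed carries doxycycline as well as less HCM1. Each altered strain is named by a single strain number in the labels, so that clone and genotype cannot be told apart.

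The mitochondrial ribosome makes the few hydrophobic respiratory chain and ATP synthase subunits that mitochondrial DNA encodes. Nearly all of its proteins are encoded in the nucleus, made in the cytosol and imported. It descends from a bacterial ribosome: many of its proteins belong to families shared with bacteria, and others are found only in mitochondria. Tetracyclines such as doxycycline bind ribosomes of the bacterial type and inhibit mitochondrial translation in many eukaryotes. Yeast growing on glucose ferments and keeps respiration low, and the nuclear genes of mitochondrial translation are known to respond to growth and nutrients.

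HCM1 itself stood at -3.36 ± 0.26 in the deletion, 5.17 ± 0.20 in overexpressor over tagged and 5.65 ± 0.20 in overexpressor over repressed (mean ± SD over 2 arrays), so the labels held. It stood at 0.27 on the tagged over wild type array and at 1.02 ± 0.49 after 10 h of doxycycline, and had a value on 1 array only at 4 h. The 2 columns of tagged over wild type mirrored each other (Pearson r = -0.999 over 3262 ORFs). Only the first was used; it is 1 array with no dye swap, and its sign is not settled. The other arrays of a pair correlated at 0.53 to 0.76 over all ORFs, and an array held values for 2520 to 6174 ORFs. The table holds ratios, so whether the MATa marker genes are present cannot be read; at most 5 of 7 had a value in a comparison. Because the 2 arrays of a comparison are a dye swap of what the series text calls one RNA sample, every SD below is taken as technical (n = 2), and the labels do not settle whether the arrays also come from separate cultures. The test was limma over all ORFs with the spread taken from the 3 control comparisons, Benjamini-Hochberg adjusted. A true change in a control is counted as spread by this test and widens its intervals.

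The members were not measured equally well. 16 of the 43 had a value on all 12 arrays, 15 of them large subunit genes and 1, MRPS9, small. MRPS17 (uS17 family) had a value on 1 array, and MRPL15 and MRPL24 on 2. A value on both arrays existed for 38 members in the deletion, 35 and 37 in the 2 overexpressor comparisons, 22 in the first column of tagged over wild type, 25 after 4 h and 23 after 10 h of doxycycline. Counts below are over these and are not counts over all 43.

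**Figure D1:**
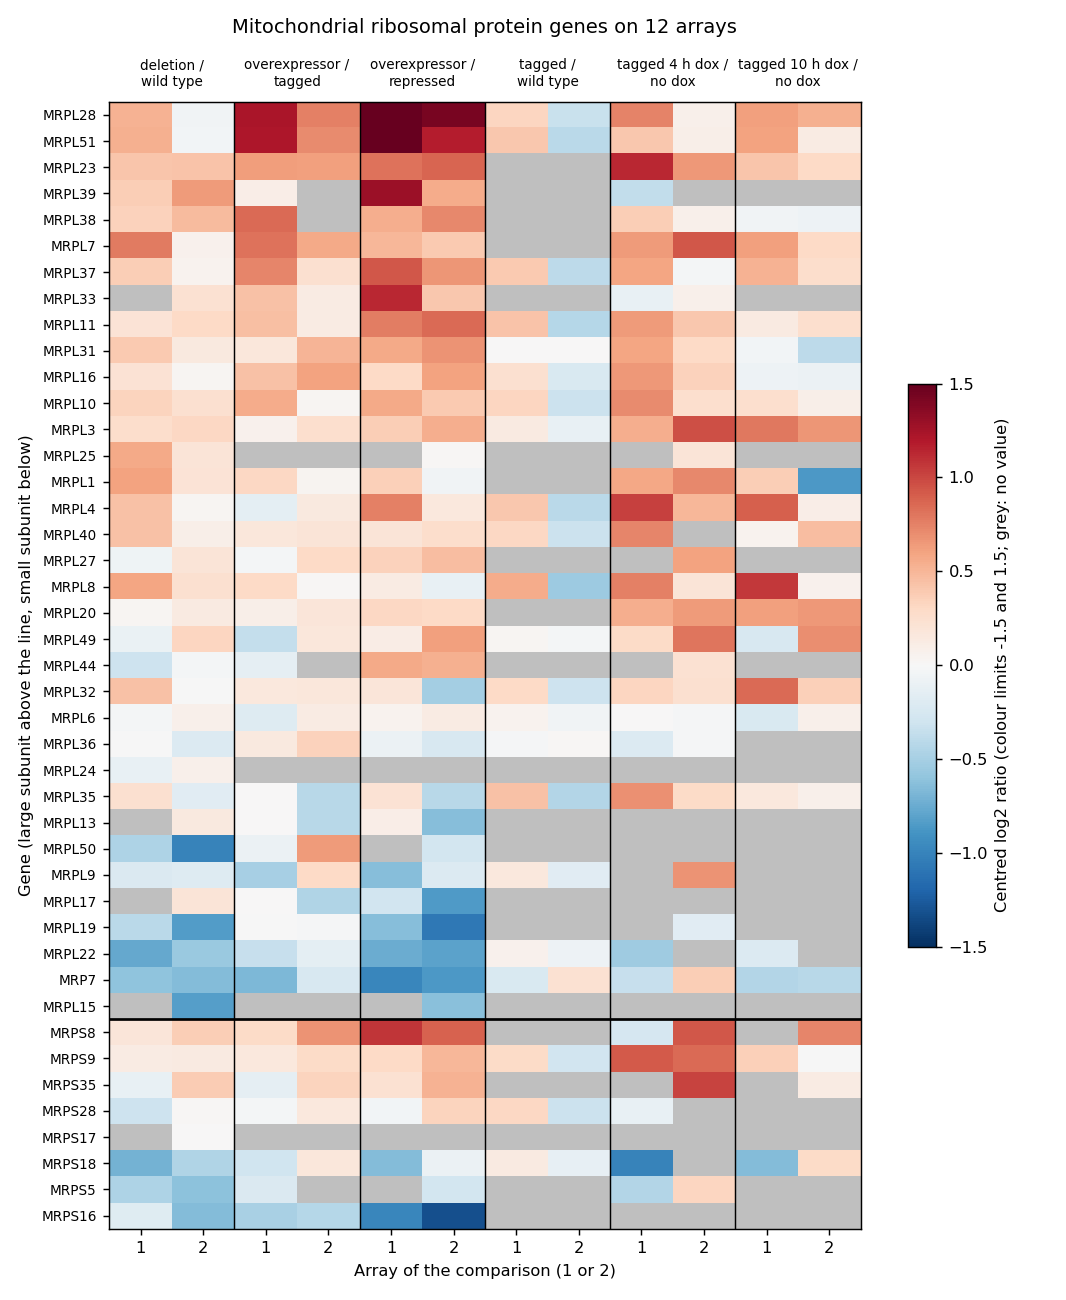
Centred log2 ratio (colour, from -1.5 to 1.5) of each of the 43 genes (rows; large subunit above the line, small subunit below) on each of the 12 arrays (columns, 2 per comparison); grey marks no value. MRPL28 and MRPL51 are the darkest red in the overexpressor comparisons, MRP7, MRPL22, MRPL19 and MRPS16 are blue in several, and the 2 tagged over wild type columns are mirror images.

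In the deletion the median of the genes stood slightly above that of all ORFs, and a minority lay well below 0. Over 38 members the median was 0.13, against -0.01 over all 5161 ORFs, and the 2 arrays put it at 0.19 and 0.07. On both arrays 18 members were higher, where 29.1% of all ORFs were, and 10 were lower, where 35.8% were. No member was at least 1.5-fold higher on both arrays, as was 0.213% of ORFs, and 1 was at least 1.5-fold lower, MRP7, as were 5.54%. Array 1 alone put 3 members past 1.5-fold higher, beside 7.79% of ORFs, and 3 lower, beside 10.4%. Array 2 alone put 1 higher, beside 1.18%, and 5 lower, beside 9.84%. Every share of lower ORFs given here and below for the deletion takes in chromosome IX, where by rule no member lies. Of its 187 ORFs, 94.1% were lower on both arrays, with the middle value at -0.92. The shares were not counted without that chromosome, so a shortage of low members cannot be read from them.

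MRP7 (YNL005C), of the bL27 family that reaches toward the peptidyl transferase centre in bacteria, read -0.60 and -0.65 on the 2 arrays (mean -0.63 ± 0.03). MRPL22 (YNL177C), of the uL22 family that lines the exit tunnel, read -0.76 and -0.55 (-0.66 ± 0.15). MRPL19 (YNL185C), of the uL11 family at the base of the stalk where translation factors dock, read -0.40 and -0.84 (-0.62 ± 0.31). All 3 were below 0 on both arrays. MRPL50, of the bL9 family, read -0.46 and -1.001, the lowest mean of the group at -0.73 ± 0.38. MRPL9 (uL3 family) stood closer to 0 at -0.20 ± 0.01.

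The highest members in the deletion were of smaller size. MRPL39 (bL33 family) read 0.37 and 0.64, with the highest mean at 0.50 ± 0.20. MRPL23 (uL13 family) read 0.42 and 0.43, a mean of 0.42 with an SD of 0.0055, and MRPL38 (uL14 family, on the face toward the small subunit) 0.35 and 0.48. MRPL7 (uL5 family, of the central protuberance) and MRPL8 (bL17 family) had means of 0.42 ± 0.51 and 0.42 ± 0.25, and the high SD of MRPL7 comes from values of 0.78 and 0.07.

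None of the 24 members with enough control values passed limma in the deletion, where 0% of 2538 ORFs passed, and the unadjusted p was below 0.05 for 0 members and for 26 ORFs. The 95% interval of a member's log2 ratio reached 0.73 to 1.21 either side (median 0.91). Counting the arrays as replicates treats the dye swap as an independent repeat. That fit called 0 members, beside 0.0951% of ORFs higher and 3.65% lower; 10 of 41 members had an unadjusted p below 0.05, beside 18.3% of ORFs. With the array number as a replicate block it called 2 of 39 members higher (MRPL23, adjusted p = 0.0375, and MRPL38, 0.0439), beside 6.85% of ORFs, and 4 lower (MRPL22, MRP7, MRPL19 and MRPS18, limma adjusted p from 0.00907 to 0.0192), beside 12.9% of ORFs.

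In overexpressor over tagged, where HCM1 was far above its normal level, the median over 35 members was 0.16, against -0.01 over 3955 ORFs, with arrays at 0.09 and 0.17. 19 members were higher on both arrays, beside 32.4% of ORFs, and 4 lower, beside 33.8%. A few members stood out above the rest. MRPL28 (YDR462W), the mitochondria-specific protein mL40 of the central protuberance, read 1.23 and 0.76 (0.99 ± 0.33, 1.99-fold). MRPL51 (YPR100W), the mitochondria-specific protein mL43, read 1.22 and 0.70 (0.96 ± 0.36, 1.94-fold).

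MRPL23 read 0.63 and 0.62. These 3, MRPL23, MRPL28 and MRPL51, were the members at least 1.5-fold higher on both arrays, a rule met by 4.88% of ORFs, and none was as much lower, as 2.07% of ORFs were. MRPL7 at 0.69 ± 0.17 (0.81 and 0.57) and MRPL16 (uL16 family) at 0.52 ± 0.12 (0.44 and 0.61) followed. Array 1 alone put 5 members past 1.5-fold higher, beside 9.61% of ORFs, and 1 lower, beside 7.31%; array 2 alone put 6 higher, beside 7.99%, and 0 lower, beside 5.71%. At the low end, MRP7 read -0.68 and -0.24 and MRPL22 -0.34 and -0.14, while MRPL19 had a mean of -0.014 ± 0.013.

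No member of 23 passed limma here, where 0% of 2435 ORFs did. 2 members had an unadjusted p below 0.05, as had 113 ORFs: MRPL51 (interval 0.08 to 1.84, adjusted p = 0.921) and MRPL28 (interval 0.02 to 1.96). With the arrays as replicates limma called 3 of 39 members higher, beside 3.99% of ORFs: MRPL28 (adjusted p = 0.0273), MRPL51 (0.0275) and MRPL23 (0.0431). With the replicate block as well it called 7 higher, beside 12.2% of ORFs, and 2 lower, MRP7 and MRPS16, beside 9.28%. The 7 were MRPL7, MRPL16, MRPL23, MRPL28, MRPL37, MRPL38 and MRPL51; MRPL38 had a value on 1 of the 2 arrays only.

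In overexpressor over repressed the members spread most. The median over 37 was 0.38, against -0.0006 over 4307 ORFs, with arrays at 0.30 and 0.40, and single genes ran from -1.15 to 1.62. 23 were higher on both arrays, beside 37% of ORFs, and 8 lower, beside 37.9%. This comparison shares the overexpressor with the preceding one, so that likeness between them is no second measurement.

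MRPL28 read 1.81 and 1.43 (1.62 ± 0.27, 3.08-fold), the highest member in any comparison, and MRPL51 1.51 and 1.18 (1.35 ± 0.24, 2.54-fold). Those 2 were past 2-fold on both arrays, as 3.2% of ORFs were, and no member was as much lower, as 2.16% were. In the other comparisons 0 members were past 2-fold on every array used. Of all ORFs, 0% were as much higher and 1.53% as much lower in the deletion, and 1.16% and 0.556% in overexpressor over tagged. The shares were 0.0301% and 0.301% in tagged over wild type, 1.08% and 1.76% at 4 h, and 2.85% and 6.66% at 10 h of doxycycline. Past 1.5-fold on both arrays were also MRPS8 (uS8 family) at 1.07 and 0.89, MRPL23 at 0.81 and 0.87, MRPL11 (uL10 family, which anchors the stalk) at 0.76 and 0.85, and MRPL37 (mitochondria-specific, mL54) at 0.93 and 0.67. That made 6 of 37 higher, where 8.34% of ORFs were. MRPL39, at 1.29 and 0.56, missed this rule on its second array.

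4 members were at least 1.5-fold lower on both arrays, where 8.24% of ORFs were. MRPS16 (YPL013C), of the bS16 family, read -0.98 and -1.32 (-1.15 ± 0.24), the lowest member in any comparison. MRP7 read -0.98 and -0.86 (-0.92 ± 0.09), MRPL19 -0.64 and -1.08 (-0.86 ± 0.31) and MRPL22 -0.75 and -0.81 (-0.78 ± 0.04). MRPL17 (mitochondria-specific, mL46) followed at -0.28 and -0.85, and MRPL9 at -0.63 and -0.21. Array 1 alone put 9 members past 1.5-fold higher, beside 12.5% of ORFs, and 6 lower, beside 13.4%; array 2 alone put 10 higher, beside 16.8%, and 6 lower, beside 15.2%.

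Of 24 members tested none passed limma, where 0.0403% of 2480 ORFs did, which is 1 ORF, HCM1 itself. 3 members, MRPL28, MRPL51 and MRP7, had an unadjusted p below 0.05, as had 233 ORFs. The interval of MRPL28 was 0.65 to 2.59 (adjusted p = 0.22), that of MRPL51 0.47 to 2.22 (0.251) and that of MRP7 -1.75 to -0.09 (0.45). MRPS16, MRPL19, MRPL22 and MRPS8 lacked the 2 control values that the test needs. Without the 10 h doxycycline control in the spread, limma called 95 ORFs, 4.03% of 1961 higher and 0.816% lower; MRPL28 (adjusted p = 0.0104) and MRPL51 (0.0327) were among them.

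With the arrays as replicates limma called 10 of 40 members higher, beside 10.3% of ORFs, and 4 lower, beside 10.5%. The 4 were MRPS16, MRP7, MRPL22 and MRPL19 (adjusted p from 0.0044 to 0.0146), and MRPL28 led the 10 (0.00115). With the replicate block the numbers were 21 and 7 of 39, beside 23.2% and 23.5% of ORFs.

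**Figure D2:**
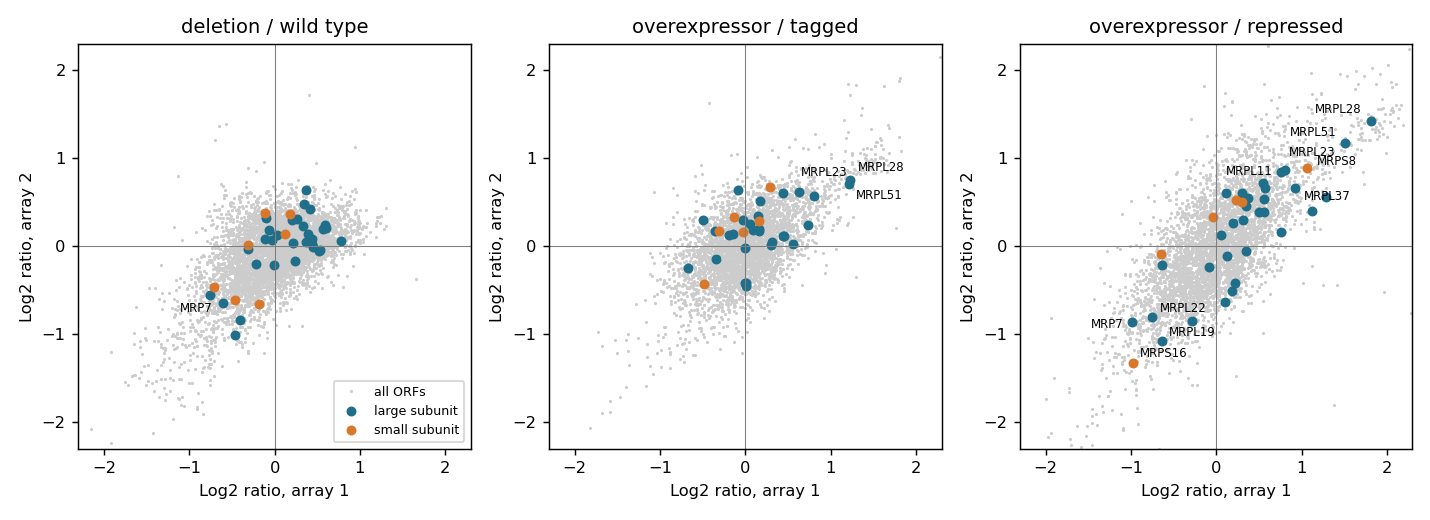
Log2 ratio on array 1 (x axis) against array 2 (y axis) of all ORFs with both values (grey) and of the large (blue) and small (orange) subunit genes in the 3 comparisons in which HCM1 differed; the few ORFs beyond the axes are not drawn. Genes at least 1.5-fold from 1 on both arrays are named: MRP7 alone in the deletion, 3 high genes in overexpressor over tagged, and 6 high and 4 low genes in overexpressor over repressed.

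The denominator of that comparison had doxycycline, which was also measured without a tet promoter. In the tagged strain, 10 h of doxycycline left the median over 23 members at 0.23, against 0.01 over 2312 ORFs, with arrays at 0.36 and 0.13. 14 members were higher on both arrays, beside 35.8% of ORFs, and 4 lower, beside 35.8%. Adding these values to the ratio of overexpressor over repressed, an alternative chosen after the data were seen, moved the median of the 23 members with both from 0.45 to 0.58, MRPL28 from 1.62 to 2.20 and MRP7 from -0.92 to -1.35.

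After 10 h of doxycycline MRPL3 (mitochondria-specific, mL44) read 0.79 and 0.67 (0.73 ± 0.09) and MRPL20 (mitochondria-specific, mL58) 0.62 and 0.65 (0.63 ± 0.02). These 2 of 23 were at least 1.5-fold higher on both arrays, beside 10.3% of ORFs, and 0 were as much lower, beside 12.2%. MRPL32 (bL32 family) at 0.60 ± 0.35, MRPL28 at 0.58 ± 0.06 and MRPL8 at 0.56 ± 0.71 came next, the last with arrays at 1.06 and 0.06. MRP7 was the lowest, at -0.44 and -0.42. Limma passed 10.8% of 1644 ORFs in this comparison and 0 of 16 members, none with an unadjusted p below 0.05; 365 ORFs had one. Array 1 alone put 8 members past 1.5-fold higher, beside 24.8% of ORFs, and 1 lower, beside 20.8%; array 2 alone put 3 higher, beside 16.8%, and 1 lower, beside 19.1%. MRPL3 came closest to passing limma (interval -0.06 to 1.51, adjusted p = 0.281).

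After 4 h of doxycycline the median over 25 members was 0.47, the highest of the 6 comparisons, against 0.04 over 2495 ORFs, with arrays at 0.58 and 0.32. 18 were higher on both arrays, beside 36.4% of ORFs, and 1, MRPL36 (bL31 family, -0.21 and -0.02), lower, beside 29.5%. MRPL23 (1.13 and 0.65), MRPS9 (uS9 family, 0.92 and 0.85) and MRPL7 (0.64 and 0.93) were at least 1.5-fold higher on both arrays, beside 5.09% of ORFs. 0 were as much lower, beside 5.13%. MRPL4 (uL29 family, beside the tunnel exit) at 0.76 ± 0.37, MRPL3 at 0.76 ± 0.30 and MRPL1 (uL1 family, of the mobile stalk) at 0.65 ± 0.10 followed.

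The members' values on the 2 arrays correlated at 0.21 after 4 h and 0.24 after 10 h, against 0.84 in overexpressor over repressed. Over all ORFs these correlations were 0.53, 0.71 and 0.76. The members' means also spanned less, from -0.11 to 0.89 at 4 h and -0.43 to 0.73 at 10 h, against -1.15 to 1.62. A narrower span lowers a correlation, so how well single genes were measured cannot be read from it alone. At 4 h array 1 alone put 12 members past 1.5-fold higher, beside 16.2% of ORFs, and array 2 alone 8, beside 12.5%; 0 were as much lower on either, beside 16.2% and 9.5%. None of 16 tested members passed limma at 4 h, where 0% of 1644 ORFs did; the unadjusted p was below 0.05 for 0 members and 42 ORFs, and MRPS9 had the lowest adjusted p, 0.993 (interval -0.03 to 1.81). The dose of doxycycline is not given in the labels.

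Tagged over wild type, 1 array, had a member median of 0.29, against 0.00 over 3317 ORFs; with the sign turned, from the second column, it was -0.30. In the first column 20 of 22 members were above 0, beside 49.9% of ORFs, and 2, MRP7 (-0.23) and MRPL36 (-0.01), below, beside 49.9%. MRPL8 (0.56), MRPL35 (mL38, 0.44) and MRPL11 (0.42) were highest. 0 members were 1.5-fold higher, beside 1.57% of ORFs, and 0 lower, beside 4.4%. Limma passed 0 of 16 members and 0% of 1644 ORFs, with 0 members and 2 ORFs at an unadjusted p below 0.05. Ratios in this column followed coding length across ORFs (Spearman -0.55), and the members are short; with that trend removed their median was 0.07.

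The large and small subunit genes were compared next. In the deletion the median was 0.22 over 31 large and -0.15 over 7 small subunit genes, a difference of 0.37. Array 1 put that difference at 0.45 and array 2 at 0.05. In overexpressor over tagged the medians were 0.17 (29 genes) and 0.08 (6 genes), and in overexpressor over repressed 0.40 (31) and 0.26 (6). Those differences were 0.08 and 0.14; array 2 gave -0.05 and -0.02. The controls had 3, 3 and 2 small subunit genes, too few to describe, and at 4 h the 2 arrays gave 0.83 and -0.56. In all 5 comparisons with 2 arrays the difference was larger on array 1, and in 4 of them it changed sign. The members were not resampled, and no test of the difference was made, because genes are not replicates of a condition.

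**Figure D3:**
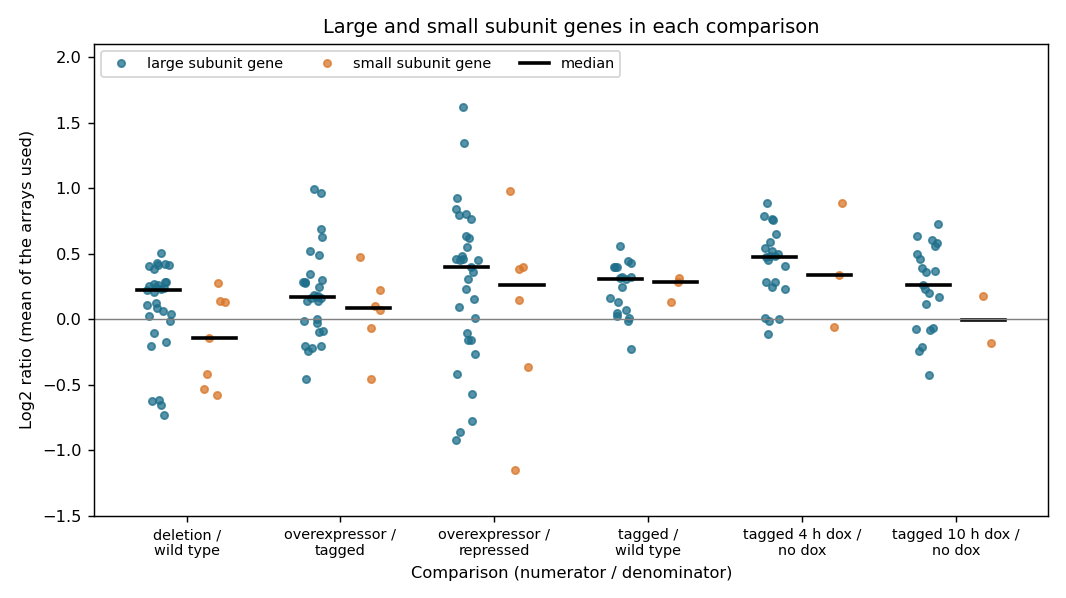
Log2 ratio (y axis; mean of the arrays used) of each large subunit gene (blue) and small subunit gene (orange) with a value, by comparison (x axis), with medians as bars; tagged over wild type is 1 array with an unsettled sign. The ranges of the subunits overlap in every comparison, and the widest spread, from -1.15 to 1.62, is in overexpressor over repressed.

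The small subunit genes did not go together. MRPS18 (uS11 family, of the platform) read -0.71 and -0.46 in the deletion, -0.30 and 0.17 in overexpressor over tagged and -0.64 and -0.09 in overexpressor over repressed. MRPS16 read -0.18 and -0.65 in the deletion and -0.48 and -0.43 in overexpressor over tagged. MRPS5 (uS5 family, near the mRNA entry in bacteria) read -0.46 and -0.61 in the deletion. It had 1 array in each overexpressor comparison, at -0.21 in overexpressor over tagged and -0.28 in overexpressor over repressed. These 3 were below 0 on both arrays of the deletion.

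MRPS8 lay on the other side, at 0.18 and 0.36 in the deletion and 0.28 and 0.67 in overexpressor over tagged. MRPS9 was above 0 on both arrays of all 3 of these comparisons, at 0.12 and 0.14, 0.16 and 0.29, and 0.30 and 0.50. MRPS28 (uS15 family), at -0.31 and 0.02 in the deletion and -0.04 and 0.34 in overexpressor over repressed, and MRPS35 (mitochondria-specific, mS45), at -0.11 and 0.38 and then 0.23 and 0.53, had arrays of opposite sign in at least 1 of them. MRPS17 read 0.01 on its 1 array. Under doxycycline the arrays differed in sign for 4 of these genes: MRPS5 read -0.44 and 0.32 and MRPS8 -0.25 and 0.93 at 4 h, MRPS9 0.36 and -0.01 at 10 h, and MRPS18 -0.65 and 0.28 at 10 h. MRPS35 read 1.01 on its 1 array at 4 h.

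The signs of the members were alike in comparisons that share no RNA. Of the 23 members with the same sign on both arrays in the deletion and also in overexpressor over repressed, 22 (95.7%) had that sign in both, 15 higher and 7 lower; of 2092 other ORFs 76% did. HCM1 was lower in the first and higher in the second. The 7 low genes were MRP7, MRPL9, MRPL19, MRPL22, MRPL36, MRPS16 and MRPS18, and MRPL44 went opposite ways. Between the deletion and overexpressor over tagged the count was 18 of 19 (94.7%, against 74.6% of 1737 other ORFs).

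The same count was made for the doxycycline controls. Doxycycline is in the numerator of these and in the denominator of overexpressor over repressed. The sign was shared with the deletion by 14 of 14 members at 4 h, beside 70.6% of other ORFs, and by 11 of 14 at 10 h, beside 69.8%. With overexpressor over repressed it was shared by 15 of 15 members at 4 h, beside 63.4%, and by 12 of 15 at 10 h, beside 54.5%. MRPL16, MRPL31 and MRPL38 were the exceptions at 10 h in both cases. These counts were made after the values were seen and carry no test; the comparisons share probes, array design and labelling, whose part in them was not tested.

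Several of the low genes in the deletion and in overexpressor over repressed lie on chromosome XIV. Of the 6 members of that chromosome with both arrays in the deletion, 5 were lower on both (MRP7, MRPL19, MRPL22, MRPL50 and MRPS18) and 1, MRPL10 (uL15 family, 0.33 and 0.24), was higher. In overexpressor over repressed it was again 5 of 6 (with MRPL17 in place of MRPL50) and MRPL10 (0.56 and 0.40). Chromosome XIV as a whole stood slightly low there: the median over its 334 ORFs was -0.15 in the deletion, with 53% lower on both arrays, and over 280 ORFs -0.24 in overexpressor over repressed, with 59.3% lower. The medians of its members were -0.62 and -0.67. In overexpressor over tagged 3 of its 7 members were lower on both arrays and 1 higher, with a median of -0.067, against -0.049 over its 253 ORFs, of which 42.3% were lower. Chromosome XIV was not alone in this. Over all their ORFs chromosomes IX and VI, which hold no member, had medians of -0.92 and -0.24 in the deletion. In overexpressor over repressed these were -0.22 and -0.20. Outside chromosome XIV the member medians were 0.22 in the deletion, 0.17 in overexpressor over tagged and 0.40 in overexpressor over repressed. On both arrays 17 of 32, 18 of 28 and 22 of 31 of those members were higher, and 5, 1 and 3 lower. Leaving out a chromosome with many low members reduces the lower counts by itself. The shares of all ORFs outside that chromosome were not counted, so a shortage of low members cannot be read here. This split was also made after the values were seen, and its cause was not tested.

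The members are short genes, with a median coding length near 650 bases (649.5 in the deletion) against 1251 for all ORFs measured there. In that comparison log2 ratios were lower for longer genes over all ORFs (Spearman -0.27), and less over the members (-0.09). In the 2 overexpressor comparisons the correlation over members was -0.37 and -0.40, beside -0.21 and -0.24 over all ORFs. With the length trend of each array removed, the member medians were 0.08 in the deletion, 0.10 in overexpressor over tagged and 0.19 in overexpressor over repressed. After doxycycline they were 0.45 at 4 h and 0.14 at 10 h. MRPL28 and MRPL51 are 444 and 423 bases long. With the length trend removed their means were 0.11 and 0.11 in the deletion and 0.86 and 0.82 in overexpressor over tagged. In overexpressor over repressed they were 1.42 and 1.13.

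Proteins found only in mitochondria and those of bacterial families were set side by side, with the assignment taken from the common ribosomal nomenclature. In overexpressor over repressed the median was 0.43 over 12 mitochondria-specific and 0.23 over 25 bacterial-family members. In the deletion the medians were 0.21 (11 genes) and 0.13 (27), in overexpressor over tagged 0.14 (11) and 0.17 (24), and at 4 h of doxycycline 0.45 (7) and 0.48 (18). At 10 h of doxycycline they were 0.39 (7) and 0.19 (16), and in the first column of tagged over wild type 0.36 (6) and 0.26 (16). The order of these medians differed between comparisons. This split was chosen after the values were known. All 4 members past 1.5-fold lower in overexpressor over repressed belong to bacterial families, and 3 of the 6 past 1.5-fold higher are mitochondria-specific.

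The other genes of mitochondrial translation had medians closer to 0 in the 3 comparisons in which HCM1 differed, for the first list by little in the deletion and in overexpressor over tagged. The 29 other mitochondrial ribosome genes, with MRP, RSM and further names, had medians of 0.11, 0.13 and 0.18 in the deletion and the 2 overexpressor comparisons. On both single arrays their medians were closer to 0 than the members' only in overexpressor over repressed. In overexpressor over tagged the arrays put them at 0.19 and 0.20, against 0.09 and 0.17 for the members. With the length trend removed their 3 medians were 0.03, 0.11 and 0.11, against 0.08, 0.10 and 0.19 for the members. Their ends were RSM26 (0.54 ± 0.30) and MHR1 (0.51 ± 0.28) against MRP51 (-0.55 ± 0.04) and RSM18 (-0.46 ± 0.21) in the deletion. In overexpressor over tagged they were RSM27 (0.99 ± 1.10) and MRP21 (0.55 ± 0.01) against MRP20 (-0.16 ± 0.05) and MRP51 (-0.08 ± 0.29). In overexpressor over repressed they were PET123 (0.66 ± 0.59) and MRP17 (0.63 ± 0.04) against MRP51 (-0.55 ± 0.09) and MRPS12 (-0.35 ± 0.53). MRP51, a small subunit protein needed to translate mitochondrial mRNAs, was thus low on both arrays in 2 of the 3. On both arrays 11 of 27, 11 of 22 and 12 of 24 measured genes of this list were higher, beside 29.1%, 32.4% and 37% of ORFs. Lower on both were 7, 1 and 3, beside 35.8%, 33.8% and 37.9%.

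Translation factors and mRNA-specific activators (22 genes) had medians of 0.05, 0.05 and 0.17. They are longer than the members. With the length trend removed the medians were -0.03, 0.05 and 0.18, the last beside 0.19 for the members. The release factor gene MRF1 stood at 0.54 ± 0.01 and 0.87 ± 0.29 in the 2 overexpressor comparisons, the elongation factor gene MEF1 at 0.71 ± 0.27 in the first, and CBP6, of cytochrome b synthesis, at 0.93 ± 0.58 in the second. The highest in the deletion were AIM23, an initiation factor (0.29 ± 0.22), and MTG1, a GTPase of ribosome assembly (0.17 ± 0.72). The low ends were IFM1 (-0.50 ± 0.10) and MEF2 (-0.44 ± 0.18) in the deletion, AEP1 (-0.26 ± 0.31) and CBP3 (-0.23 ± 0.30) in overexpressor over tagged, and ATP22 (-0.40 ± 0.33) and PET54 (-0.36 ± 0.44) in the last. After 4 h of doxycycline TUF1, the elongation factor Tu gene of mitochondria, read 1.67 and 1.17, and MEF1 0.84 and 0.78; after 10 h they stood at 0.48 ± 0.04 and 0.37 ± 0.07. These last 2 genes at these times were singled out after their values were seen.

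The mitochondrial aminoacyl-tRNA synthetase genes (14) had medians of -0.06, -0.01 and -0.11. MSM1, for methionine, was the lowest in all 3 (-0.36 ± 0.21, -0.50 ± 0.24 and -0.51 ± 0.36), and AIM10, a homolog of the proline enzyme, the highest in both overexpressor comparisons (0.53 ± 0.21 and 0.83 ± 0.54). The next lowest were ISM1, for isoleucine (-0.34 ± 0.14), in the deletion and DIA4, for serine, in the overexpressor comparisons (-0.47 ± 0.39 and -0.48 ± 0.61). SLM5, for asparagine, and DIA4 were highest in the deletion (0.32 ± 0.14 and 0.12 ± 0.60), and ISM1 (0.35 ± 0.38) and MST1, for threonine (0.59 ± 0.42), came after AIM10. No gene of these lists passed limma in the 3 comparisons in which HCM1 differed. After 10 h of doxycycline 1 of 10 tested genes of the first list, MRPS12, and 0 of 4 factors and 0 of 4 synthetases passed, beside 10.8% of ORFs; MRPS12 read 3.12 and -0.65, so that its arrays disagreed in sign. Groups outside mitochondrial translation are given for scale. Cytosolic ribosomal protein genes had medians of 0.28, -0.06 and -0.13, and 0.61 and 1.06 after 4 h and 10 h of doxycycline, where the members had 0.47 and 0.23. Their arrays differed in sign in both overexpressor comparisons, at 0.12 and -0.26 and then 0.15 and -0.42. In the deletion the arrays gave 0.55 and 0.004. At 10 h 34 of 95 tested passed limma, all higher. Nuclear respiratory chain and ATP synthase genes had -0.08, 0.59 and 0.25.

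**Figure D4:**
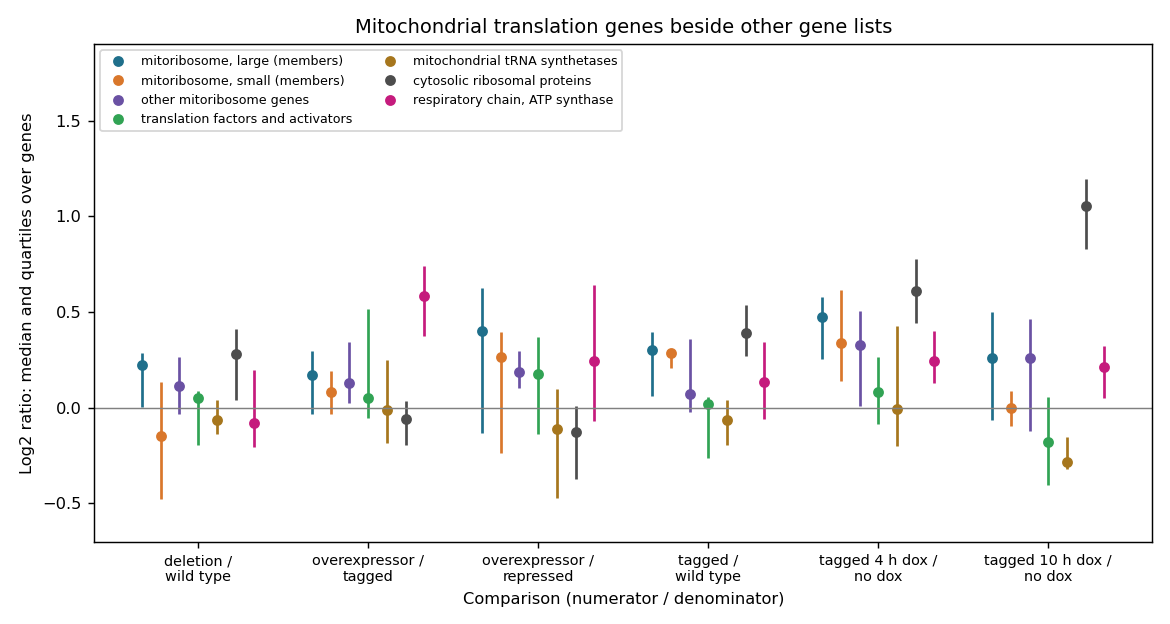
Median log2 ratio (point) and quartiles over genes (line) of the large and small subunit genes and of 5 other gene lists, in each comparison (x axis); tagged over wild type is 1 array with an unsettled sign. The large subunit median is above 0 in all 6 as drawn, while cytosolic ribosomal protein genes are highest after 10 h of doxycycline at 1.06. Their median is below 0 in both overexpressor comparisons as drawn, but above 0 on array 1 (0.12 and 0.15).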

How the data were processed

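Cy5- and Cy3-labelled cDNA was made from total RNA by an indirect method, per the labels' protocols. The authors deposited log2 ratios, already normalized by a method not given in the sources used here. The base was read from the values: 2 raised to each fell on a grid of 0.001 within its rounding for 100% of values in every column. In the first tagged over wild type column, which has 3 decimals, 91.0% did so as natural logs, so the grid says little there. Each array was centred on its median; a comparison is the mean of its 2 arrays, both required, with the 1 exception above. Arrays carry the same experiment numbers as their dye orientation: same-numbered deviations correlated at 0.56 to 0.69 in all 10 pairs of comparisons, so the numbers pair the arrays; experiment and dye cannot be told apart, and the mean cancels a dye effect only.

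The test was limma (3.58.1, R 4.3.3; lmFit, eBayes) on the 6 comparison values, with controls assumed to show no change and at least 2 of the 3 control values required, a requirement set after simulated data were run. The 10 h doxycycline control did not meet that assumption, since limma passed 10.8% of 1644 ORFs there against the other 2 controls. Limma was also run on simulated data with no true change in any control. That run therefore does not bear on this assumption. Length trends were lowess fits (statsmodels 0.14.6, fraction 0.5) on coding lengths of the gene table, which matched 5675 ORFs by locus tag and not 499. The members, lists and tests were chosen with earlier results of these data known. Named genes are HCM1, all small subunit members, the 5 highest and 5 lowest large subunit members per comparison among those with 1 sign on both arrays, every member past 1.5-fold on both arrays, and the 2 highest and 2 lowest of each other mitochondrial translation list in the HCM1 comparisons. Alternatives covered centring, scaling, single arrays, coding length, missing values, fold, the replicate unit and block, and the controls in the residual. Promoter sequences and raw intensities were not analysed here.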

Additional observations from a re-analysis of the deposited data

Results flagged for a closer look

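After doxycycline in the tagged strain, 3 members stood above 0 on both arrays at 4 h and below 0 on both at 10 h. MRPL16 (uL16 family) had means of 0.50 and -0.079, MRPL31 (mitochondria-specific) 0.45 and -0.21, and MRPL38 (uL14 family) 0.23 and -0.065. Both times were set over the same untreated strain, and the difference between them was not tested. Opposite signs of this kind were seen in 3 of 21 members measured at both times (14.3%) and in 218 of 1970 ORFs (11.1%).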

How the results depend on the processing

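The member medians stayed above 0 under the alternatives run, except where the sign of tagged over wild type was turned (-0.30, and -0.018 for large minus small subunit genes). With the length trend removed they were 0.10 in overexpressor over tagged, 0.19 in overexpressor over repressed and 0.073 in tagged over wild type; over the 16 members measured on every used array they were 0.23 in the deletion and 0.46 in overexpressor over repressed, where values on either array gave 0.31. Single arrays gave 0.093 to 0.17 in overexpressor over tagged and 0.30 to 0.40 in overexpressor over repressed, and large minus small of 0.054 to 0.45 in the deletion. With the 10 h doxycycline value added, chosen after seeing the data, overexpressor over repressed gave 0.58 for the median over 23 members. Large minus small was 0.58 there. Its small subunit side held only MRPS9 (0.58) and MRPS18 (-0.55), too few to describe.

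Members past 1.5-fold in the deletion numbered 0 as deposited, 3 with arrays scaled to 1 spread and 2 without the length trend, against 1. At 2-fold the counts were 0 in the deletion, 0 in overexpressor over tagged, 2 in overexpressor over repressed, 0 at 4 h and 0 at 10 h. By sign alone they were 28, 23, 31, 22 (tagged over wild type), 19 and 18. The count for tagged over wild type is fixed by the rule. On 1 array nearly every ORF has a sign, 49.9% higher and 49.9% lower. At 4 h the deposited values gave 6, and at 10 h removing the length trend left 1. Single arrays gave 6 to 6 in the deletion, 6 to 6 in overexpressor over tagged, 15 to 16 in overexpressor over repressed, 8 to 12 at 4 h and 4 to 9 at 10 h. The shares of all ORFs at 2-fold, by sign and on single arrays are given above. As deposited, scaled or without the length trend they were not counted. Those shifts can therefore not be read as particular to the members.

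Over all ORFs, limma called 1 in the deletion and 5 in overexpressor over tagged with arrays scaled; the latter also gave 1 with robust shrinkage, 1 without the 4 h control and 5 without the 10 h control. Overexpressor over repressed gave 0 as deposited, 0 with the mirrored columns averaged, 0 with robust shrinkage, 0 without the tagged control and 95 without the 10 h control. Arrays as replicates gave 197, 259 and 1035, and with the replicate block 892, 937 and 2087. The cause of these shifts was not tested. Of 340 values of single members under settings other than single arrays, 51 moved by more than the spread of their 2 arrays and 9 changed sign, where the mean farthest from 0 had a size of 0.11. On single arrays 27 of 230 changed sign. For a member past 1.5-fold on both arrays, single arrays and scaling cannot change the sign. None of these members changed sign as deposited or without the length trend. Precision is limited by 2 arrays a comparison.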
